A study of Mus musculus with 12 samples.

Results

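The genes described here are 10 receptors, adhesion molecules and ligands, grouped as adhesion and homing genes of the bone marrow niche. The 10 are Cxcr4, Selplg, Cd44, the integrin subunits Itga4, Itga5, Itga6 and Itgb1, Cd47, Cd93 and Angpt1. They were taken by name, with earlier results of these data known, and are 10 of the 22180 genes with a probe set that names 1 gene. Each gene was read from its probe set with the highest mean over the arrays. All 10 of these genes passed the filter on dim probe sets, which 17749 genes passed in all.

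Blood stem cells and progenitors stay in the marrow because stromal cells there release the chemokine CXCL12, which acts on the receptor CXCR4, and because surface molecules anchor them. The integrin pair alpha-4 beta-1 binds VCAM-1 on stroma, alpha-5 beta-1 binds fibronectin and alpha-6 subunits bind laminins. PSGL-1, the product of Selplg, binds the selectins of vessel walls, CD44 binds hyaluronan, and angiopoietin-1 acts on the receptor TIE2. Leukemic stem cells of myeloid leukemia use some of these molecules to lodge in the marrow. CD47 on a cell inhibits its uptake by macrophages.

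RNA was measured in marrow cells of C57BL/6J mice with acute myeloid leukemia caused by MLL-AF9, a fusion oncogene that the leukemic cells of all 4 groups carried. Recipients irradiated with 10 Gy received 50000 marrow progenitor and stem cells with the fusion, of genotype AMPKfl/fl, called wild type in the labels, or AMPKΔ/Δ, called knockout here, which lack the energy-sensing kinase AMPK. When a recipient became leukemic, 5000 marrow cells were sorted as whole leukemia (all GFP+ cells) or as L-GMP, the leukemia-initiating fraction, which was GFP+, lineage-negative, c-Kit+, CD16/32+ and CD34+. Each of the 4 combinations has 3 one-colour arrays, 12 in all. The labels name neither the AMPK subunit that was floxed nor the Cre that deleted it, and they do not say whether arrays come from separate recipients. The p-values therefore measure the spread between these arrays, which may be technical in part. In these bulk samples, fewer cells of a type and less RNA per cell cannot be told apart.

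As a check of the labels, Prkaa1, which encodes a catalytic subunit of AMPK, read 6.83 to 7.31 log2 in knockout and 7.99 to 8.33 in wild-type L-GMP. In whole leukemia it read 6.95 to 7.45 against 7.72 to 8.69. The groups did not overlap in either population, although Prkaa1 did not pass the test over all genes (limma, adjusted p = 0.622 and 0.592), and whether its probe set lies in the deleted part is not known. Of the sorting gate genes, Cd34 read 9.45 to 10.05 in the 6 L-GMP arrays, 8.35 to 9.38 in wild-type whole leukemia and 5.54 to 7.05 in knockout whole leukemia. Over both genotypes, L-GMP minus whole leukemia was 2.14 log2 for Cd34, 0.85 for Kit, 0.21 for Fcgr2b and -0.12 for Fcgr3, Fcgr2b and Fcgr3 being the genes of CD16/32, and none was called. 1 array stood apart from the rest. Knockout whole leukemia array 2 correlated with the others at 0.865 to 0.916, where the highest correlation between any 2 arrays was 0.983, and its erythroid markers averaged 9.13 log2 against 5.30 to 6.17 elsewhere. Knockout L-GMP array 2 had the highest eosinophil, basophil and mast cell markers, at 7.59 against 5.48 to 6.30. Some member differences that involve these arrays are also given without 1 or both of them. Counts over the gene lists are given with all arrays.

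No member of the group passed the test in any of 6 comparisons (limma, adjusted p under 0.05 over 17749 genes): the genotypes within L-GMP, the genotypes within whole leukemia, the 2 populations within the wild type, within the knockout and over both, and the interaction of genotype and population. The background was equally thin. Of all genes, 0.00563% were called in the genotype comparison in L-GMP, which is 1 gene and no member, and 0% in each of the other 5. At an unadjusted p under 0.05 there were 0 members in the L-GMP genotype comparison, 2 in the whole leukemia one (Cd93 and Selplg), 0 for L-GMP against whole leukemia in the wild type, 2 in the knockout (Cd93 and Angpt1), 1 over both genotypes (Angpt1) and 0 for the interaction. Without both number-2 knockout arrays the counts were 0, 1 (Selplg), 0, 0, 0 and 0. The shares over all genes, with all arrays, were 4.13%, 5.97%, 2.5%, 7.39%, 7.52% and 2.06%. In the L-GMP genotype comparison the member count was 3 with array weights, 3 without wild-type L-GMP array 1 and 2 without knockout L-GMP array 3. The shares over all genes under these settings are not given, and no member was called there. Groups of 3 arrays could not give an exact permutation p below 0.1 for any single gene.

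The members varied more between arrays of 1 group than genes did in general. Their median residual SD was 0.33 log2, against 0.19 over all genes kept. Itgb1 (0.14) and Cd47 (0.17) had the smallest, and Angpt1 (0.56) and Itga5 (0.54) the largest. The group means of a gene differed by at most 0.11 log2 for Itgb1, 0.20 for Cd47, 0.29 for Itga4, 0.38 for Cd44, 0.45 for Cxcr4, 0.69 for Itga5, 0.72 for Itga6, 0.80 for Selplg, 0.95 for Cd93 and 1.28 for Angpt1.

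**Figure D1:**
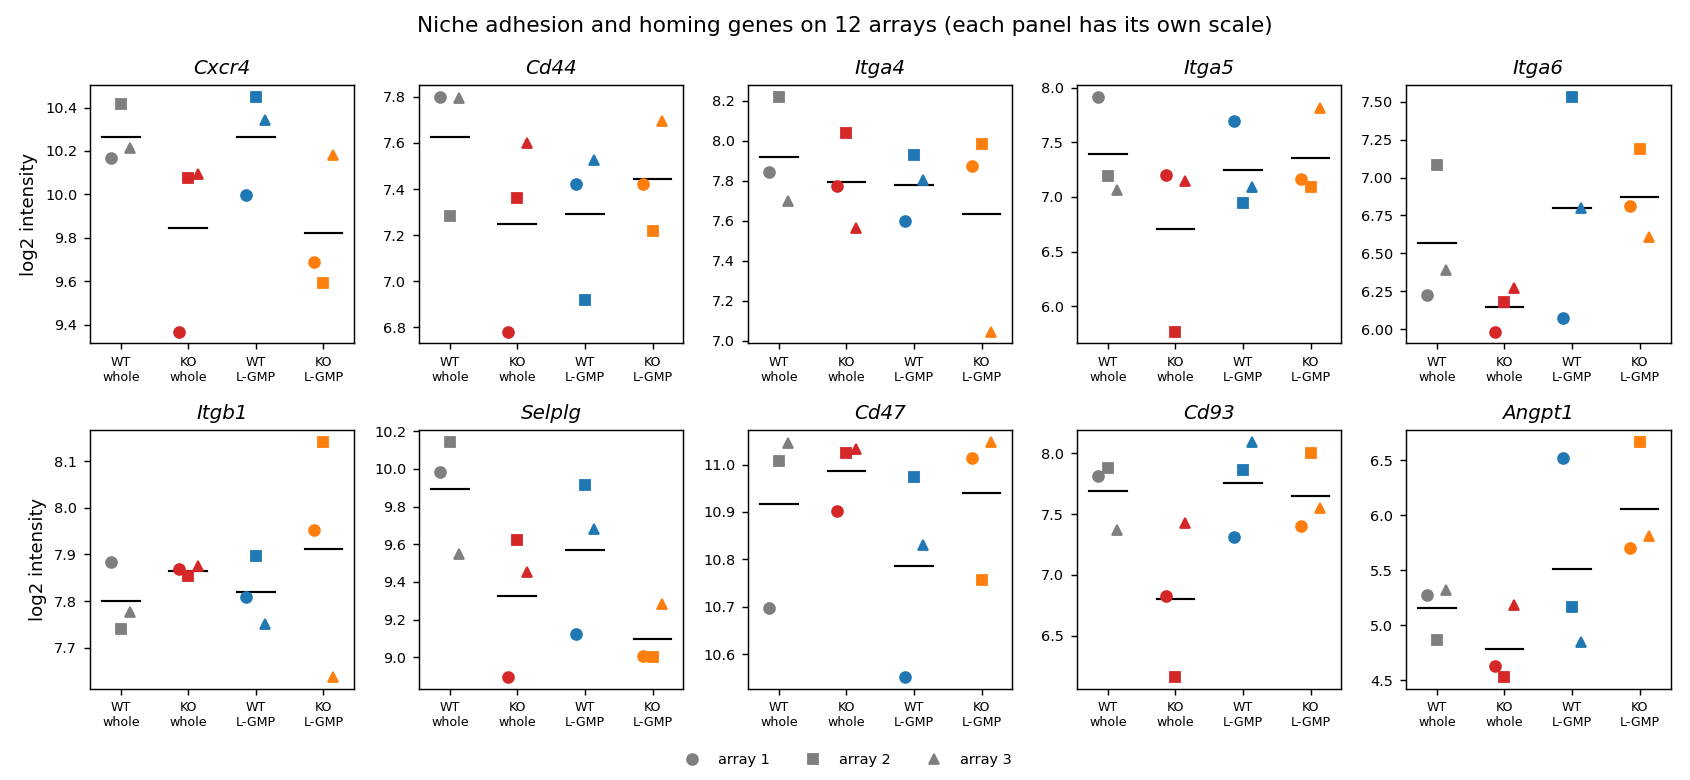
Log2 intensity of the 10 genes (vertical axes, each with its own scale) on the 3 arrays of each of 4 groups (horizontal axes; WT is wild type, KO is knockout), with the symbol giving the array number and the black bar the group mean. Arrays of 1 group are as far apart as groups for most genes, and the 3 knockout L-GMP arrays of Angpt1, from 5.71 to 6.67, lie above the 3 knockout whole leukemia arrays, from 4.53 to 5.19.

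Cxcr4 encodes the CXCL12 receptor that retains cells in marrow. In whole leukemia it read 10.17, 10.42 and 10.21 log2 on the wild-type arrays and 9.37, 10.07 and 10.10 on the knockout arrays. All 3 knockout arrays lay below all 3 wild-type arrays, and knockout arrays 2 and 3 lay just below the lowest wild-type one. The knockout mean was 0.747 times the wild-type mean, a difference of -0.42 log2 (SE 0.22, 95% interval -0.91 to 0.07; limma, adjusted p = 0.829). It was the 1 member of 10 whose groups did not overlap in this comparison, where 11.2% of all genes had groups that did not overlap. In L-GMP, Cxcr4 read 10.00, 10.45 and 10.34 in the wild type and 9.69, 9.59 and 10.18 in the knockout. These groups overlapped, since knockout array 3 was above wild-type array 1. The difference was -0.44 log2 (SE 0.22, interval -0.93 to 0.05, 0.735 times; limma, adjusted p = 1.00). Without knockout whole leukemia array 1, which was the lowest of the 12, the difference in whole leukemia was -0.18, and it lay between -0.18 and -0.55 over all arrays left out in turn. The population means lay close together, with an L-GMP minus whole leukemia difference of -0.00 in the wild type (interval -0.49 to 0.49) and -0.03 in the knockout (interval -0.51 to 0.46). The knockout arrays of numbers 1, 2 and 3 gave differences of 0.32, -0.48 and 0.09. Without both number-2 knockout arrays the mean difference was 0.20.

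Selplg encodes PSGL-1, the ligand of P-selectin and a ligand of the other selectins. Its wild-type whole leukemia arrays read 9.98, 10.14 and 9.55 log2, and its knockout ones 8.90, 9.62 and 9.45. Knockout array 2 lay just above wild-type array 3, so the groups overlapped. The knockout level was 0.675 times that of the wild type, with a difference of -0.57 log2 (SE 0.24, interval -1.11 to -0.03; limma, adjusted p = 0.827). Without knockout array 1 it was -0.35. In L-GMP it read 9.12, 9.91 and 9.68 in the wild type against 9.01, 8.999 and 9.28 in the knockout, so that wild-type array 1 fell within the knockout range. That difference was -0.48 log2 (SE 0.24, interval -1.02 to 0.06; limma, adjusted p = 1.00). Leaving out array 2 of the wild-type L-GMP gave -0.31. A dimmer probe set of Selplg, which follows the first over the 12 arrays (Pearson r 0.961, Spearman rho 0.944), gave -0.62 in whole leukemia and -0.36 in L-GMP. The L-GMP minus whole leukemia difference was -0.32 for the wild type and -0.23 for the knockout (SE 0.24 each; limma, adjusted p = 1.00 and 0.844).

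**Figure D2:**
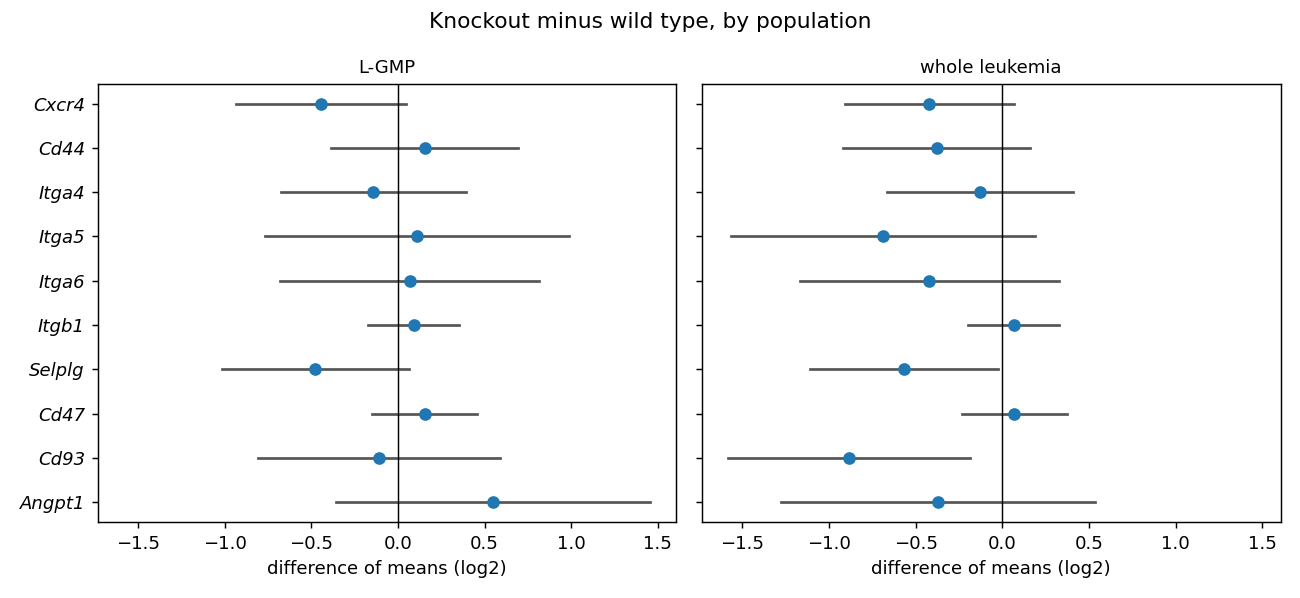
Difference between the mean of 3 knockout and 3 wild-type arrays (horizontal axis, log2; points) for the 10 genes in L-GMP (left) and whole leukemia (right), with the 95% interval of the limma fit as lines. In L-GMP all 10 intervals hold 0; in whole leukemia those of Cd93, at -0.88, and Selplg, at -0.57, do not, before adjustment over all genes.

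Cxcr4 and Selplg were the members that followed each other most closely from array to array. Over the 12 arrays Pearson's r between them was 0.861 and Spearman's rho 0.846, and after subtraction of group means r was 0.837. Within L-GMP (6 arrays) r was 0.921 (exact permutation p = 0.0153) and rho 1.0 (exact permutation p = 0.00278). Within whole leukemia (6 arrays) r was 0.903 (exact permutation p = 0.0139) and rho 0.714 (exact permutation p = 0.136). Neither passed after adjustment over the 90 relations computed, which covered every pair of the 10 genes in both populations (two-sided, adjusted p = 0.458 for r in both, and 0.25 and 0.721 for rho). Without the 2 arrays farthest from the median of Cxcr4, r was 0.978 over 4 L-GMP arrays and 0.267 over 4 whole leukemia arrays. The relation in whole leukemia thus did not hold without the 2 most extreme arrays, a choice that also narrows the range of Cxcr4 and leaves few points.

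**Figure D3:**
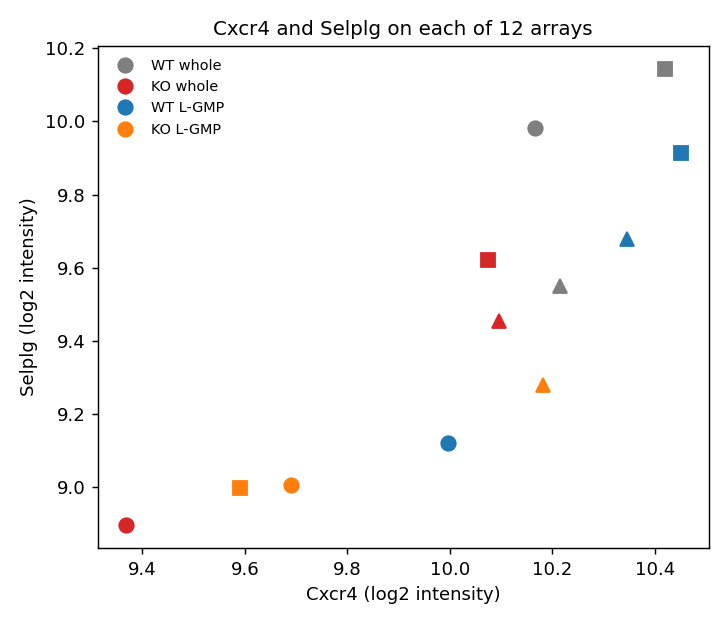
Selplg (vertical axis) against Cxcr4 (horizontal axis), both in log2 intensity, on each of 12 arrays; colour gives the group, and circles, squares and triangles are arrays 1, 2 and 3. Arrays low in 1 gene tend to be low in the other, from knockout whole leukemia array 1 (9.37 and 8.90) to wild-type whole leukemia array 2 (10.42 and 10.14).

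Markers of other cells were read beside both genes. The 12 monocyte and macrophage markers averaged 8.02 to 8.40 log2 on the wild-type whole leukemia arrays and 7.16 to 7.83 on the knockout ones, and 11 of 12 were lower in the knockout, 6 of them at an unadjusted p under 0.05 and 0 called (limma). In L-GMP 11 of 12 were also lower, 1 of them at that p and 0 called, and the list averaged 7.58 to 8.17 in the wild type and 7.32 to 7.58 in the knockout. The 12 neutrophil markers averaged 7.62 to 10.14 in wild-type and 8.78 to 11.50 in knockout whole leukemia, with 12 of 12 higher in the knockout and 0 called. No defining marker of either list was below the dimness limit of 4.72 on every array. The part of these cells in the Cxcr4 and Selplg values was not tested.

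**Figure D4:**
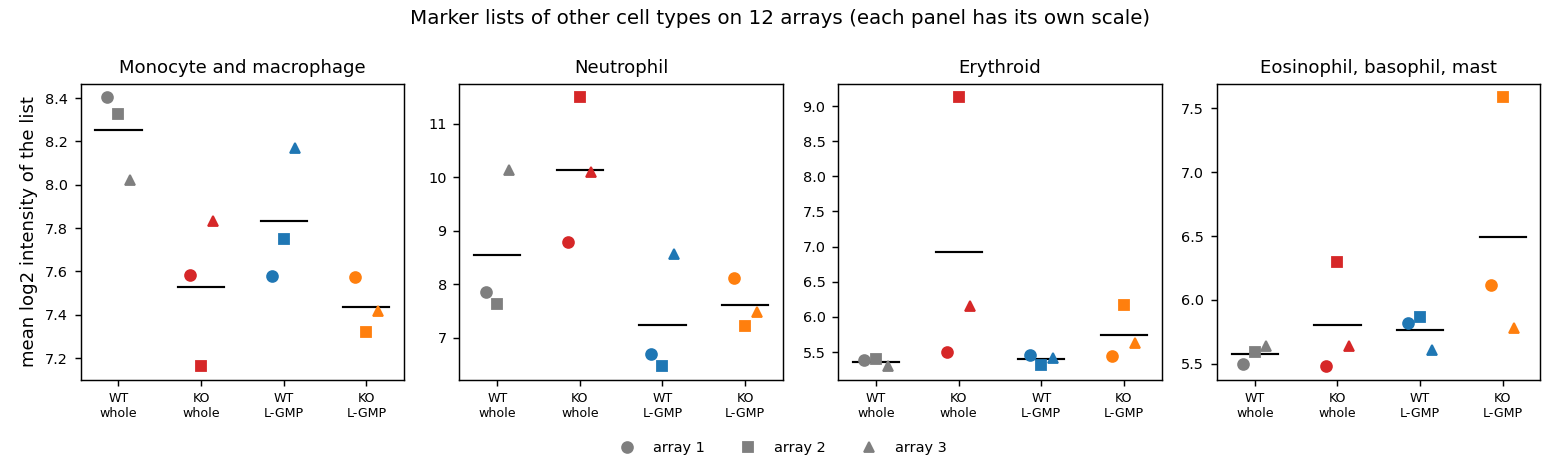
Mean log2 intensity (vertical axes, each with its own scale) of 4 lists of marker genes on the 3 arrays of each group (horizontal axes), with the group mean as a black bar and the symbol giving the array number. Knockout whole leukemia array 2 has the highest erythroid (9.13) and neutrophil (11.50) markers and the lowest monocyte markers (7.16), and knockout L-GMP array 2 the highest eosinophil, basophil and mast cell markers (7.59).

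Cd44, the hyaluronan receptor, read 7.80, 7.28 and 7.79 log2 on the wild-type and 6.78, 7.36 and 7.60 on the knockout whole leukemia arrays. The ranges overlapped, and the difference was -0.38 (SE 0.24, interval -0.92 to 0.16; limma, adjusted p = 0.853). It was -0.15 without knockout array 1 and -0.55 without knockout array 3. In L-GMP it read 7.42, 6.92 and 7.53 in the wild type and 7.42, 7.22 and 7.69 in the knockout, a difference of 0.16 (SE 0.24; limma, adjusted p = 1.00). Between the populations, the wild-type L-GMP array of each number minus the whole leukemia array of that number gave -0.38 to -0.27 log2. The mean differences were -0.34 for the wild type (-0.51 to -0.15 with 1 array left out, the ends being without whole leukemia array 2 and without L-GMP array 2) and 0.20 for the knockout, and the interaction of genotype and population was 0.53 (SE 0.34; limma, adjusted p = 1.00), or 0.30 without knockout whole leukemia array 1.

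Among the integrins, Itgb1, the beta-1 subunit shared by all 3 alpha subunits here, had the smallest residual SD of the 10 and the group means that lay closest together. It lay between 7.64 and 8.14 log2 on every array. Its difference between genotypes was 0.09 in L-GMP (interval -0.17 to 0.35) and 0.07 in whole leukemia (interval -0.20 to 0.33); these were the narrowest intervals of the 10 genes. L-GMP and whole leukemia differed by 0.02 in the wild type and by 0.05 in the knockout (SE 0.12 each).

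Itga4, the alpha-4 subunit of the VCAM-1 receptor, read 7.84, 8.22 and 7.70 in wild-type and 7.77, 8.04 and 7.56 in knockout whole leukemia. In L-GMP it read 7.60, 7.93 and 7.80 in the wild type and 7.87, 7.98 and 7.05 in the knockout, where array 3 was the lowest of the 12. The genotype differences were -0.13 in whole leukemia and -0.14 in L-GMP (SE 0.24 each), and without that array the L-GMP difference was 0.15. The L-GMP minus whole leukemia differences, -0.14 for the wild type and -0.16 for the knockout, were also smaller than their SE of 0.24. A further probe set, annotated to both Cerkl and Itga4, was not used.

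Itga5, the alpha-5 subunit of the fibronectin receptor, read 7.92, 7.19 and 7.07 in wild-type whole leukemia against 7.20, 5.77 and 7.15 in the knockout. The value of 5.77 comes from the array with high erythroid and neutrophil markers. The difference was -0.69 (SE 0.40, interval -1.56 to 0.19; limma, adjusted p = 0.841) with that array and -0.22 without it. In L-GMP the wild-type arrays read 7.70, 6.95 and 7.09 and the knockout arrays 7.17, 7.09 and 7.81, a difference of 0.11 (SE 0.40). Within the knockout, L-GMP was 0.65 above whole leukemia (SE 0.40; limma, adjusted p = 0.711), 0.18 above it without that array and 0.31 above it without both number-2 arrays, against a difference of -0.15 in the wild type.

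Itga6, the alpha-6 laminin receptor subunit, was among the dimmer members, with 6.23, 7.08 and 6.39 in wild-type and 5.98, 6.18 and 6.27 in knockout whole leukemia. In L-GMP it read 6.07, 7.53 and 6.80 in the wild type and 6.82, 7.19 and 6.61 in the knockout. In the knockout all 3 L-GMP arrays were above all 3 whole leukemia arrays, and the difference was 0.72 log2 (SE 0.34, interval -0.02 to 1.47, 1.65-fold; limma, adjusted p = 0.674), or 0.58 without both number-2 arrays. In the wild type it was 0.24 (SE 0.34), with number 2 the highest array of both populations, and leaving out wild-type L-GMP array 2 gave -0.13. The 2 genotypes were not shown to differ (interaction 0.49, SE 0.48; limma, adjusted p = 1.00).

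Cd47, the inhibitor of macrophage uptake, lay between 10.55 and 11.05 log2 on every array. The genotype difference was 0.15 in L-GMP (interval -0.15 to 0.46) and 0.07 in whole leukemia (interval -0.23 to 0.37), and the population difference was -0.13 for the wild type and -0.05 for the knockout.

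Cd93, a lectin-like surface protein of early blood progenitors and myeloid cells, had the largest genotype difference of the 10. In whole leukemia it read 7.82, 7.88 and 7.37 log2 in the wild type and 6.83, 6.16 and 7.42 in the knockout. Knockout array 3 lay just above wild-type array 3, and the other 2 knockout arrays lay below every other array. The knockout level was 0.542 times that of the wild type, a difference of -0.88 log2 (SE 0.31, interval -1.58 to -0.19; limma, adjusted p = 0.827). The lowest value, 6.16, again comes from knockout array 2, whose monocyte markers were the lowest of the 12, and without it the difference was -0.56 (limma, adjusted p = 1.00). In L-GMP the wild-type arrays read 7.31, 7.87 and 8.10 and the knockout arrays 7.40, 8.002 and 7.55, with a difference of -0.11 (SE 0.31, interval -0.81 to 0.59). The genotype difference was not shown to vary with population (interaction 0.78, SE 0.44, interval -0.21 to 1.76; limma, adjusted p = 1.00). Within the knockout, Cd93 was 0.85 log2 higher in L-GMP than in whole leukemia (SE 0.31; limma, adjusted p = 0.671), 0.52 higher without array 2 of whole leukemia and 0.35 higher without both number-2 arrays. The wild-type difference was 0.07.

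Angpt1, the only soluble ligand of the group, had the largest difference between populations. In the knockout its L-GMP arrays read 5.71, 6.67 and 5.81 log2 and its whole leukemia arrays 4.63, 4.53 and 5.19. The L-GMP arrays were all above the whole leukemia arrays, but 2 of the 3 whole leukemia arrays lay below 4.72, the mean below which genes were left out as dim. The difference was 1.28 log2 (SE 0.41, interval 0.38 to 2.18; limma, adjusted p = 0.671). With one side that close to background, it is given as a difference of measured values and not as a fold. Angpt1 and Itga6 were the 2 members of 10 whose groups did not overlap in this comparison, against 10.2% of all genes.

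In the wild type, Angpt1 read 6.52, 5.17 and 4.85 in L-GMP and 5.28, 4.86 and 5.32 in whole leukemia. The L-GMP arrays fell on both sides of the whole leukemia arrays. The difference was 0.36 (SE 0.41), and it was -0.15 without L-GMP array 1. Over both genotypes the difference was 0.82 (SE 0.29, interval 0.18 to 1.46; limma, adjusted p = 0.661), with the L-GMP arrays at 4.85 to 6.67 and the whole leukemia arrays at 4.53 to 5.32. Without both number-2 knockout arrays that difference was 0.60. The interaction was 0.92 (SE 0.58, interval -0.36 to 2.20; limma, adjusted p = 1.00). Between genotypes, the knockout minus wild-type difference was 0.55 in L-GMP (SE 0.41, interval -0.35 to 1.45; limma, adjusted p = 1.00) and -0.37 in whole leukemia (SE 0.41; limma, adjusted p = 0.913). With 1 array left out, the first lay between 0.22 (without wild-type L-GMP array 3) and 1.05 (without wild-type L-GMP array 1), and it was 0.25 without knockout L-GMP array 2.

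Knockout L-GMP array 2, the highest for Angpt1, also had the highest eosinophil, basophil and mast cell markers. Without it the knockout difference was 0.98, without knockout whole leukemia array 2 it was 1.15, and without both it was 0.85 (limma, adjusted p = 1.00). Over the L-GMP groups that list averaged 5.61 to 5.86 in the wild type and 5.78 to 7.59 in the knockout, with 7 of 8 tested markers higher in the knockout, 1 of them at an unadjusted p under 0.05 and 0 called (limma). Megakaryocyte markers lay between 5.17 and 5.48 on every array, and stromal and endothelial markers between 4.89 and 5.08, with 5 of 12 below the dimness limit. The part of any of these cells in the Angpt1 values was not tested. A second probe set of Angpt1, which lay between 4.52 and 4.98 on all arrays, followed the first (Pearson r 0.934, Spearman rho 0.881 over 12 arrays) and gave a knockout difference of 0.25. The named genes most like Angpt1 over the 12 arrays were Snx24 (Pearson r 0.889), Slc28a2b (0.888) and Fignl2 (0.878).

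**Figure D5:**
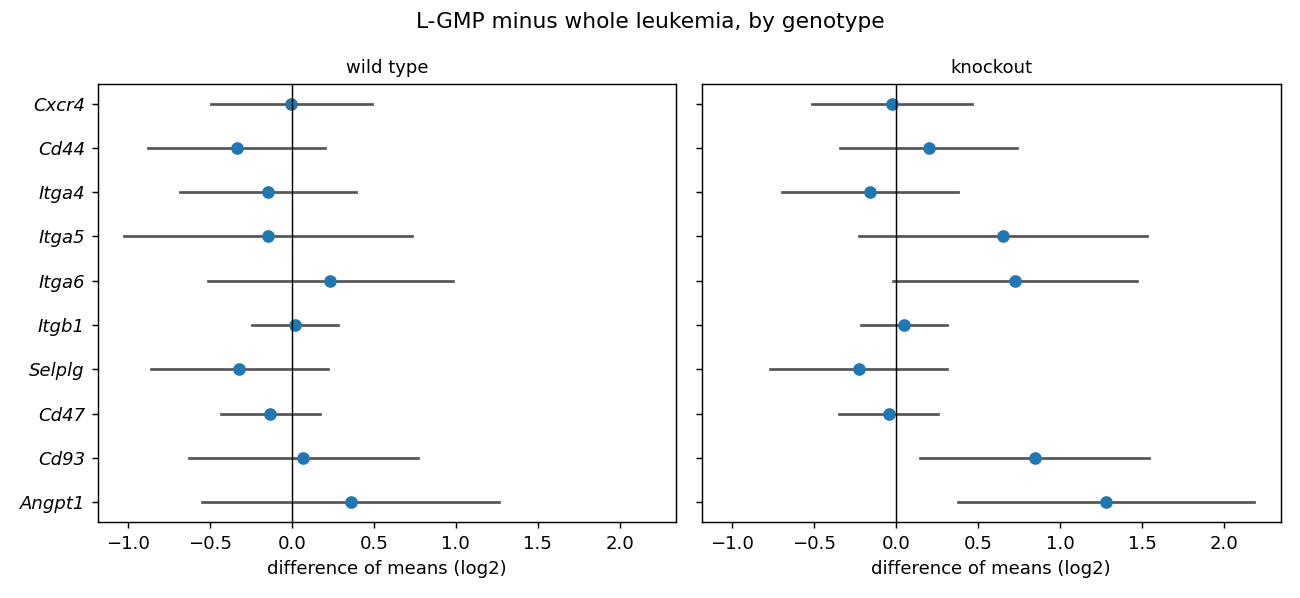
Difference between the mean of 3 L-GMP and 3 whole leukemia arrays (horizontal axis, log2; points) for the 10 genes in the wild type (left) and the knockout (right), with the 95% interval of the limma fit as lines. In the wild type all 10 intervals hold 0; in the knockout those of Cd93, at 0.85, and Angpt1, at 1.28, do not, before adjustment over all genes.

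By direction alone, 8 of 10 members were lower in knockout than wild-type whole leukemia, with a median difference of -0.40 log2 against a median near 0 over all genes, 49.6% of which were higher. The median was -0.34 without knockout array 2 and -0.24 without knockout array 1, and 8 of 10 were lower in both cases. In the same comparison 11 of 12 monocyte markers were lower, as were 7 of 8 MLL-AF9 target genes (median -0.84). By contrast, 12 of 12 neutrophil and 9 of 9 erythroid markers were higher, and 0 genes were called in each of these lists (limma). The erythroid list averaged 9.13 on knockout array 2, 5.49 and 6.15 on knockout arrays 1 and 3, and 5.30 to 5.40 in the wild type. The neutrophil list averaged 11.50 on knockout array 2. Knockout arrays 1 and 3, at 8.78 and 10.10, lay within its wild-type range of 7.62 to 10.14. The mean of the MLL-AF9 targets overlapped between the genotypes, at 6.12 to 7.08 on the knockout arrays and up to 7.46 on the wild-type ones. Their part and that of these cells in the shift of the members was not tested. In L-GMP 4 of 10 were lower and the median was 0.08, against 0.02 over all genes; 0 of 10 had groups that did not overlap, against 9.48% of all genes. Without knockout L-GMP array 2, 6 of 10 were lower and the median was -0.06. There, 7 of 8 MLL-AF9 targets were lower (median -0.55) and 10 of 10 granulocyte-macrophage progenitor markers higher (median 0.44) in the knockout, with 0 called, and their part was not tested either. For L-GMP against whole leukemia, 6 of 10 were lower in the wild type (median -0.07) and 4 of 10 in the knockout (median 0.12). In these comparisons 0 of 10 members had groups that did not overlap in the wild type, against 10.3% of all genes, and 0 of 10 over both genotypes, against 0.355%. The genotype and population comparisons share arrays and are not independent of each other.

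The partners and neighbours of these genes were read from 9 lists holding 136 genes, of which 126 had a probe set that names 1 gene and 122 were tested. None was called in any comparison (limma, lowest adjusted p = 0.586). At an unadjusted p under 0.05 there were 7 of 122 between genotypes for L-GMP and 14 for whole leukemia, 9 for L-GMP against whole leukemia in the wild type, 13 in the knockout and 17 over both genotypes, and 2 for the interaction. These are 5.74%, 11.5%, 7.38%, 10.7%, 13.9% and 1.64% of the 122, beside 4.13%, 5.97%, 2.5%, 7.39%, 7.52% and 2.06% of all genes. None passed adjustment, and the genes named from these lists were chosen after their values were seen.

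Around CXCR4, 8 of 11 other genes of the CXCL12 axis were higher in knockout than wild-type L-GMP (median 0.17 log2), and 6 of 11 in whole leukemia (median 0.01). Rgs18, which shortens signalling by such receptors, was 0.49 higher in knockout L-GMP (SE 0.21; limma, adjusted p = 1.00). Of 16 other chemoattractant receptors, 15 were lower in L-GMP than in whole leukemia over both genotypes (median -0.25, against 0.00 over all genes), 3 of them at an unadjusted p under 0.05. These were Fpr2 (-2.42, SE 0.57), C5ar1 (-1.40, SE 0.41) and Cxcr2 (-1.95, SE 0.77), receptors that guide neutrophils. In the same comparison 12 of 12 neutrophil markers, a list that also holds Cxcr2, were lower in L-GMP, with 0 called. L-GMP was sorted as lineage-negative and c-Kit+, whereas whole leukemia was all GFP+ cells. The part of the sort in these differences was not tested. In knockout whole leukemia Ccr2 (-0.89, SE 0.24) and Cx3cr1 (-0.78, SE 0.22), receptors of monocytes that are also in the monocyte list, were lower than in the wild type (limma, adjusted p = 0.740 each).

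Among selectins and the genes that make their ligands, 10 of 15 were higher in knockout L-GMP (median 0.06) and 8 of 15 in knockout whole leukemia (median 0.00). Tpst2, an enzyme that sulfates tyrosines of proteins such as PSGL-1, had the lowest p of the 122 genes after adjustment: its knockout minus wild-type difference in whole leukemia was -0.68 log2 (0.622 times, SE 0.17; limma, adjusted p = 0.586). Cd24a, whose product can bind P-selectin, was 5.03-fold higher there (2.33 log2, SE 0.89; limma, adjusted p = 0.827). Its value without knockout whole leukemia array 2, which had the highest erythroid and neutrophil markers, is not given. The part of those cells in the Cd24a values was not tested. Of 12 genes around CD44 and hyaluronan, 9 were lower in knockout whole leukemia (median -0.05). Vcan, which encodes a proteoglycan that binds hyaluronan, had an L-GMP minus whole leukemia difference of -1.34 log2 for the wild type and -1.13 for the knockout (SE 0.32 each; limma, adjusted p = 1.00 and 0.671).

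For the integrins, 13 of 21 other subunits were higher and 8 lower in knockout whole leukemia (median 0.05), and 11 and 10 in L-GMP (median 0.01). Itga1, an alpha subunit that pairs with beta-1 to bind collagen, was the lowest of them relative to the wild type in both populations, at -1.64 in whole leukemia and -1.28 in L-GMP (SE 0.42 each; limma, adjusted p = 0.609 and 1.00). Itgam and Itgb2 together form the Mac-1 receptor of mature myeloid cells. Their L-GMP minus whole leukemia differences were -1.33 and -0.96 log2 over both genotypes (limma, adjusted p = 0.661 each). The part of the lineage-negative sort of L-GMP in these 2 values was not tested. Of 16 genes of integrin activation and linkage, 12 were higher in knockout L-GMP (median 0.09) and 12 were lower in L-GMP than in whole leukemia over both genotypes (median -0.17). Rasgrp2, an activator of the GTPase RAP1, was 0.36 higher in the knockout in both populations (SE 0.15 each; limma, adjusted p = 1.00 in L-GMP and 0.827 in whole leukemia).

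All 7 genes of the CD47 list were lower in knockout whole leukemia (median -0.33, against a median near 0 over all genes), 1 of them, Qpctl, at an unadjusted p under 0.05 (limma, adjusted p = 0.827). The list holds the receptor gene Sirpa and the phosphatase genes Ptpn6 and Ptpn11 that act below it, together with Thbs1, Calr, Lrp1 and Qpctl. In L-GMP 4 of 7 were lower (median -0.08). Qpctl encodes an enzyme that modifies the end of CD47 that binds its receptor. The monocyte markers were lower in the same arrays, and their part in this was not tested. The 3 tested genes of the angiopoietin list were all higher in the knockout in both populations (medians 0.07 and 0.25), among them Angpt2 in whole leukemia (0.28, SE 0.10; limma, adjusted p = 0.827), which encodes the related ligand. Tek, the gene of the TIE2 receptor, was below the dimness limit and was not tested. Of 21 other adhesion genes, 13 were higher in the knockout in both populations (medians 0.04 and 0.08).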

How the data were processed

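RNA of the 12 samples was amplified and biotin-labelled with NuGEN kits, per the labels' protocols. The deposited values are intensity values per probe set on a linear scale, from 18.0 to 9108; which software the authors used, and how they corrected background and normalized, is not given in the sources used here. Array medians lay between 36.9 and 39.3, so no further scaling was applied and log2 was taken without a pseudocount. Symbols are those of the platform annotation (23521 probe sets with 1 symbol, 1814 with several, 8459 unlisted and unnamed here). The lowest 25% of probe sets by mean were left out. The comparisons used limma 3.58.1 under R 4.3.3 (lmFit and eBayes, 1 mean per group, 8 residual and 2.36 prior degrees of freedom), Benjamini-Hochberg over 17749 genes, called at 0.05; relations between genes used exact permutation (scipy 1.17.1). The fit was tested on simulated data. There are 3 arrays a group, which limits the precision. The members and lists were chosen with earlier results of these data known. The text names all members, Prkaa1, the sorting gate, called list genes (0), and the 3 genes most like any member whose group means span over 1 log2; uncalled list genes it names besides were chosen after their values were seen.

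Same-numbered whole leukemia and L-GMP arrays deviated together in the wild type (r 0.363, 0.623 and 0.301, each highest with its own number) but not throughout in the knockout (0.133, 0.0905 and 0.432), so the numbers met the bar for pairs in the wild type alone; the main fit has no block. Alternatives were the filter, normalization, variance model, array weights, groups fitted, probe set rule, replicate blocks and each array left out.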

Additional observations from a re-analysis of the deposited data

How the results depend on the processing

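No member was called under any of 23 alternatives, which gave 1340 member values with adjusted p from 0.26 upward (limma). Of the member differences, 603 of 620 under 11 alternatives and 660 of 720 with 1 array left out kept their direction. Many of these values could not change. The filter, the variance model, the groups fitted and the replicate blocks leave a difference of means as it was. Averaging probe sets can alter only Angpt1 and Selplg, and leaving out an array of a group not compared alters nothing. The counts therefore overstate how stable the directions were. Every member difference that changed sign was smaller than its standard error in the main analysis. With 3 arrays a group, such differences have no settled sign. Array weights made the knockout minus wild-type difference in L-GMP larger for Cxcr4 (-0.57) and Selplg (-0.61), with adjusted p = 0.310 and 0.343 (limma).

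The count of all genes called was 1 for knockout against wild type in L-GMP. It was 0 without the filter on dim genes, 2 with trended and robust variance, 4 with array weights, 0 with the compared groups fitted alone and 2 with probe sets averaged. For L-GMP against whole leukemia in the knockout it was 0, and 1 with the lowest 50% left out or with trended and robust variance; over both genotypes it was 0, and 1 with trended and robust variance. With 1 array left out these counts were 0 to 2 for the L-GMP genotype comparison, 0 to 1 for the whole leukemia one, 0 to 40 for the populations in the knockout and 0 to 9 over both genotypes, both highest without knockout whole leukemia replicate 1. The causes were not tested.

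With the replicate number as a block, 0 genes were called in the L-GMP genotype comparison; with genotype and number as a random block (consensus correlation 0.15), 2 were called between populations in the knockout. A fixed block of genotype and number, chosen after seeing the data, cannot estimate the differences between genotypes. It called 0 genes between populations in the wild type, and 0 members between populations or for the interaction. Pairing changed no member's call. Members at an unadjusted p under 0.05 (limma) were 4 between populations in the knockout, 2 over both genotypes and 2 for the interaction. The main fit had 2, 1 and 0. The shares over all genes with this block are not given. The fixed block gave Angpt1 an adjusted p of 0.528 (limma) for the populations in the knockout.

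Array weights turned 7 signs: Itga6 in the L-GMP genotype comparison (-0.036), Cxcr4 (0.048), Itgb1 (-0.0010) and Angpt1 (-0.00028) between populations in the wild type, Itga4 in the knockout (0.087), and the interaction of Itga4 (0.22) and Selplg (-0.070). Leaving out both number-2 knockout arrays, also chosen after seeing the data, called 1 gene in the whole leukemia genotype comparison and turned 10 signs. These were Itga6 (-0.090) and Itgb1 (-0.023) between genotypes in L-GMP, Cxcr4 (0.20), Itgb1 (-0.076) and Cd47 (0.064) between populations in the knockout, Cxcr4 (0.10), Cd44 (0.017) and Itgb1 (-0.029) over both genotypes, and the interaction of Cxcr4 (0.21) and Itgb1 (-0.095).

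With 1 array left out in turn, 28 of 60 member differences changed sign at least once. Between genotypes in L-GMP, the range was -0.030 to 0.27 for Cd44, -0.33 to 0.061 for Cd93, -0.32 to 0.15 for Itga4, -0.12 to 0.34 for Itga5, -0.30 to 0.43 for Itga6 and -0.023 to 0.23 for Itgb1. In whole leukemia it was -0.041 to 0.13 for Cd47 and -0.25 to 0.023 for Itga4. Between populations in the wild type it was -0.15 to 0.69 for Angpt1, -0.099 to 0.29 for Cd93, -0.096 to 0.13 for Cxcr4, -0.26 to 0.0059 for Itga4, -0.37 to 0.12 for Itga5, -0.13 to 0.60 for Itga6 and -0.021 to 0.061 for Itgb1. In the knockout it was -0.034 to 0.37 for Cd44, -0.10 to 0.045 for Cd47, -0.26 to 0.099 for Cxcr4, -0.33 to 0.14 for Itga4 and -0.070 to 0.18 for Itgb1. Over both genotypes it was -0.18 to 0.024 for Cd44, -0.13 to 0.053 for Cxcr4 and -0.026 to 0.10 for Itgb1. For the interaction it was -0.032 to 0.19 for Cd47, -0.26 to 0.10 for Cxcr4, -0.19 to 0.28 for Itga4, -0.089 to 0.16 for Itgb1 and -0.13 to 0.26 for Selplg.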

Other observations

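Itga4 and Itga5, whose products share the beta-1 partner, ran opposite to each other over the 6 L-GMP arrays. Here too the arrays of both genotypes were permuted together. Pearson's r was -0.888 (exact permutation p = 0.0125) and Spearman's rho -0.886 (exact permutation p = 0.0333), and neither passed adjustment over the 90 relations computed (two-sided, adjusted p = 0.458 and 0.5). Without the 2 arrays farthest from the median of Itga4, r was -0.302 over 4 arrays, a choice that also narrows the range of Itga4. Over the 6 whole leukemia arrays Itga4 and Itga5 gave r -0.288 and rho 0.086. On those arrays Itga6 and Itgb1 gave r -0.848 (exact permutation p = 0.0236, adjusted p = 0.531) and rho -0.543 (exact permutation p = 0.297, adjusted p = 0.889). In L-GMP the sign for Itga6 and Itgb1 was the opposite, with r 0.498 and rho 0.657, and over all 12 arrays r was 0.246. These pairs were chosen after their values were seen.

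The wild-type arrays numbered 2 had the highest Itga6 (7.08 in whole leukemia, 7.53 in L-GMP), Cxcr4 (10.42 and 10.45) and Selplg (10.14 and 9.91) of their groups, and the lowest Cd44 (7.28 and 6.92). In the knockout, array 2 was highest for Itga6 in L-GMP (7.19) and lay between the other 2 in whole leukemia (6.18).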
